A study of Mus musculus with 12 samples.

Results

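The interferon regulatory factors (IRFs) were followed in RNA sequencing of cultured mouse astrocytes. The members were the 8 genes whose symbol in the deposited expression table is Irf1, Irf2, Irf3, Irf4, Irf5, Irf7, Irf8 or Irf9, out of 54532 genes in that table. They were chosen by name, with earlier results of these data known.

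Astrocytes were grown from the cortex and hippocampus of adult C57BL/6 mice, and 12 libraries formed 3 experiments, each with a control group of its own and 2 libraries in every group. In the first experiment the cKO control and the Ogt cKO (conditional knockout) groups came from mice aged 4 months, and both carry the genotype label Glast-CreERT2::Ogtfloxp/Y. Glast is an astrocyte glutamate transporter gene, CreERT2 is a Cre recombinase that needs tamoxifen, and Ogt encodes the enzyme that adds O-GlcNAc to proteins. The labels describe no tamoxifen, so the groups were told apart by their descriptions alone. In the next, AD control (wild type) and AD model (5X APP Alzheimer's model) cultures came from mice whose age is 6 months by the samples' labels but 5 months by the text for the series. In the last, wild-type astrocytes from mice aged 2 months were left untreated (Aβ control) or received 20 µM amyloid-beta 1-42 for 72 h (Aβ-treated), with 73 h in the label of 1 sample. Age differed between the experiments and not within them. The labels do not say whether replicates came from separate animals or cultures, so p-values here measure the spread between these libraries, which may be technical.

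IRFs are transcription factors that share a DNA-binding domain and control interferon genes and the genes that interferons induce. IRF3 and IRF7 are activated by phosphorylation when viral nucleic acids are sensed, and they switch on interferon genes. IRF9 joins STAT2 in ISGF3, the complex that type I interferon receptors activate, and Irf7 is itself a target of ISGF3. IRF1 follows interferon gamma and NF-kB signals, IRF2 binds the same sites and often represses, and IRF4, IRF5 and IRF8 are best known from immune cells, where IRF8 is needed for microglia.

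Promoter sequence upstream of 4 members is shown because it lets the binding motifs of the factors themselves be looked for. They are Irf7, which moved most, and Irf1, Irf2 and Irf8, the only members whose windows held a match to the motifs below. Irf5 and Irf9, which were called higher in the AD model and with Aβ, are not shown. The sequences are from RefSeq, build GRCm38.p6, which matched all 8 members, and run 5′ to 3′ on the gene's own strand. Each stops at the base before the gene start in the deposited table. Capitals mark matches to 3 motifs on either strand: the ISRE bound by ISGF3 and IRFs, searched as GAAA, any 2 bases and GAAA; the GAS element of interferon gamma signalling, searched as TTCNNNGAA; and the NF-kB consensus. The motifs were settled after the members' promoters had been seen.
Irf7, chr7:141266482-141266674, minus strand: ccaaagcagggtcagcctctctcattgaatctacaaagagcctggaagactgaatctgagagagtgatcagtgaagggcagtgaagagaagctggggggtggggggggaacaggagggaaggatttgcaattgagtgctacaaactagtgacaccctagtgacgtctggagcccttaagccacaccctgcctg
Irf1, chr11:53769764-53770013, plus strand: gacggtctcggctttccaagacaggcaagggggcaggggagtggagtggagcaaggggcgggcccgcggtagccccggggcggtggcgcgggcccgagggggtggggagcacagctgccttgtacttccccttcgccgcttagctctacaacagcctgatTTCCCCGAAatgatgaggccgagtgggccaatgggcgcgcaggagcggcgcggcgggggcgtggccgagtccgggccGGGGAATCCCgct
Irf8, chr8:120736108-120736357, plus strand: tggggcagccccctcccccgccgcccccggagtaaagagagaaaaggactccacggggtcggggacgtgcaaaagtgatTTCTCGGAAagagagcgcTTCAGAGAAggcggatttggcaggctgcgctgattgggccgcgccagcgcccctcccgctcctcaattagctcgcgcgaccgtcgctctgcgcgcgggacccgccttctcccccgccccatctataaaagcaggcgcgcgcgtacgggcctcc
Irf2, chr8:46739495-46739731, plus strand: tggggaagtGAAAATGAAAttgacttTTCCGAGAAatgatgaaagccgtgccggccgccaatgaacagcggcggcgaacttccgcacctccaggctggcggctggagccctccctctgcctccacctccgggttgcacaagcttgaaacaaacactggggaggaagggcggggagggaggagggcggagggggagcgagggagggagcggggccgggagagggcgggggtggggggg
The Irf1 stretch holds a GAS and an NF-kB match, the Irf8 stretch holds 2 GAS matches, and the Irf2 stretch holds an ISRE and a GAS match, with an NF-kB match elsewhere in its window. No match to these letters lies in the Irf7 stretch, nor in the 300-base windows (250 bases before to 50 after the start) of Irf3, Irf4, Irf5, Irf7 or Irf9. Of 32851 RefSeq windows of this length, 3.44% hold the ISRE letters, 8.30% the GAS letters and 8.46% the NF-kB consensus. A match is a string of letters and not a measured site.

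Reads recovered from the values summed to 16418852 to 18705309 per library. Replicates correlated across the 14014 genes tested (Pearson's r on log2 values) at 0.985 to 0.991 in the cKO and Aβ experiments; the AD control pair gave 0.948 and the AD model pair 0.944. Ogt, the targeted gene, measured 20.8 and 24.7 FPKM in cKO controls and 11.04 and 12.03 in Ogt cKO (log2 change -0.92 ± 0.30, adjusted p = 0.038; 0.085 to 0.17 without any 1 of these 4 libraries), and 7.85 to 22.7 in the other libraries. The cultures also held RNA of other cell types. All 12 microglia and macrophage markers were above 0 in every group, with a summed level of 894 to 7927 FPKM per library, while the summed level of 10 astrocyte markers was 76.8 to 473 FPKM. Of 9 tested astrocyte markers 0 rose and 6 fell in Ogt cKO (summed level 417 to 473 FPKM in controls and 93.0 to 106 in Ogt cKO), 0 rose and 2 fell in the AD model, and 2 rose and 1 fell with Aβ. Of 6 oligodendrocyte markers 4 fell and 0 rose in Ogt cKO, 4 rose and 1 (Olig2) fell in the AD model, and 5 rose and 0 fell with Aβ. Of 6 mural cell markers 4 rose and 0 fell in Ogt cKO, 4 fell and 0 rose in the AD model, and 5 fell and 0 rose with Aβ. Of 6 endothelial markers 5 rose in Ogt cKO, 0 in the AD model and 5 with Aβ, and 0 fell in any of them. Of 5 fibroblast markers (summed level 266 to 1524 FPKM per library) 0 were called in Ogt cKO. In the AD model 3 of them fell and 0 rose, and with Aβ 1 rose and 2 fell. Over all genes tested, 22.6% were called higher and 19.8% lower in Ogt cKO. The shares were 9.80% and 7.27% in the AD model, and 20.8% and 15.1% with Aβ. The part of cell make-up in the changes that follow was not tested. In bulk RNA, fewer cells of a type and less RNA per cell cannot be told apart.

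Levels are given as FPKM, reads scaled to gene length and to library size, first for replicate 1 and then for replicate 2. Changes are log2 differences of FPKM + 1 with their standard error, which understates the change of low genes. A gene was called when limma's p, adjusted by Benjamini-Hochberg over 14014 genes, was under 0.05. In the AD model 5 of 7 tested members (Irf1, Irf5, Irf7, Irf8 and Irf9) rose and 0 fell, where 17.1% of all genes were called, 9.80% higher and 7.27% lower. With Aβ treatment 6 of 7 (the same 5 and Irf2) rose and 0 fell, where 35.9% of genes were called, 20.8% higher and 15.1% lower. In Ogt cKO 0 rose and 2 (Irf2 and Irf8) fell, where 42.3% were called, 22.6% higher and 19.8% lower. The 3 members with an unadjusted p under 0.05 in Ogt cKO (Irf2, Irf5 and Irf8) were all lower. The share of all genes under that unadjusted threshold is not given, so this count is not read as a result about the members. The median change of the 7 tested members was 1.57 in the AD model, 1.45 with Aβ and -0.34 in Ogt cKO, against -0.02, -0.04 and -0.00 over all genes tested. The 7 tested members rested on 59 to 9800 reads per library.

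**Figure D1:**
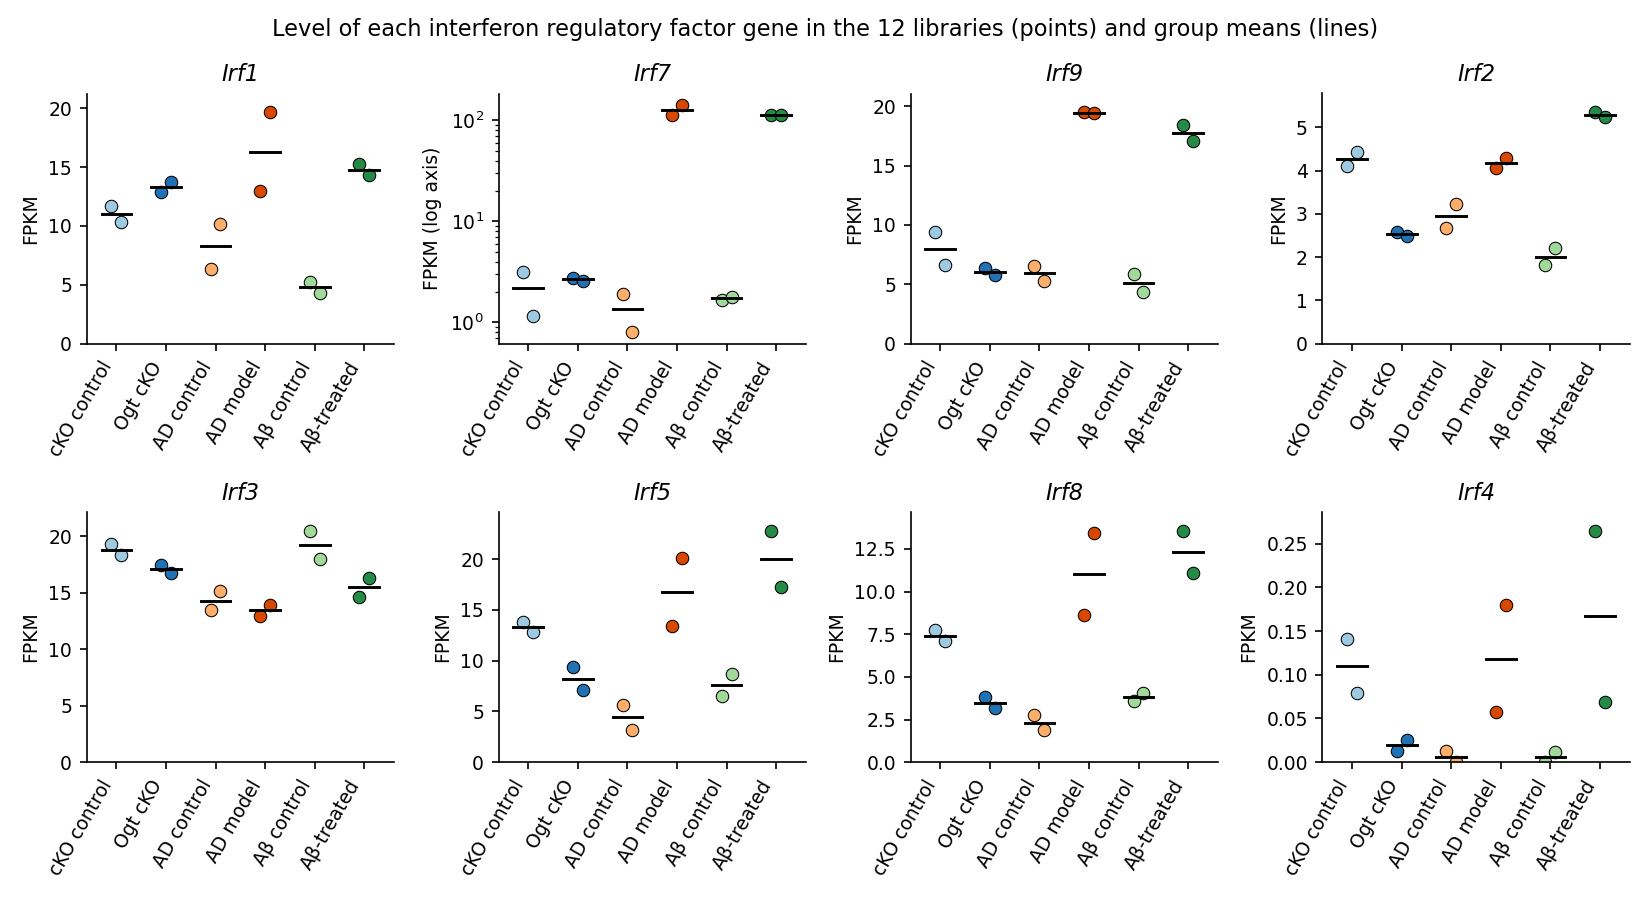
FPKM of each of the 8 interferon regulatory factors in the 6 groups, 1 point per library with a line at the group mean; the axes start at 0 except for Irf7, which has a log axis. Irf7 lies at 112 to 143 FPKM in the AD model and Aβ-treated libraries and at 3.18 or lower in the other 8, while Irf3 stays between 13.0 and 20.5.

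Irf7 moved most among the members. It encodes the inducible factor that amplifies type I interferon production, and it lies at chr7:141262706-141266481 on the minus strand of mm10. In the first experiment it measured 3.18 and 1.16 FPKM in cKO controls and 2.73 and 2.59 in Ogt cKO. In AD controls it measured 1.89 and 0.795 FPKM, and in the AD model 112 and 143. In Aβ controls it measured 1.68 and 1.78 FPKM, and in Aβ-treated cultures 114 and 114. The AD model and Aβ-treated libraries stood far above the other 8, whereas Ogt cKO lay within the range of its controls. Irf7 rose by 5.81 ± 0.31 in the AD model (adjusted p = 8.3e-06), a 94.8-fold ratio of group means, and by 5.40 ± 0.31 with Aβ (adjusted p = 1.0e-05), a ratio of 65.8. The Ogt cKO change was 0.29 ± 0.31 (adjusted p = 0.47), and its sign turned to -0.19 without cKO control replicate 2. Phrf1, on the opposite strand, shares 45 bases with the Irf7 span, and whether the counting used strand is not given in the sources used here. Phrf1 measured 8.23 to 10.5 FPKM over all libraries and was not called in any of the 3 experiments.

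Irf9 encodes the DNA-binding subunit of ISGF3 and lies at chr14:55603571-55610030 on the plus strand. It measured 9.40 and 6.63 FPKM in cKO controls and 6.37 and 5.76 in Ogt cKO. It measured 6.55 and 5.30 FPKM in AD controls and 19.5 and 19.4 in the AD model. It measured 5.83 and 4.39 FPKM in Aβ controls and 18.4 and 17.0 in Aβ-treated cultures. AD model and Aβ-treated libraries were all above every other library. Irf9 rose by 1.57 ± 0.18 in the AD model (adjusted p = 6.0e-04) and by 1.62 ± 0.18 with Aβ (adjusted p = 2.8e-04). In Ogt cKO the change was -0.34 ± 0.18 (adjusted p = 0.16); it was called after rescaling to total reads (-0.55, adjusted p = 0.026), and was -0.11 without cKO control replicate 1 and -0.56 without cKO control replicate 2. Rnf31, the neighbour on the same strand, shares 123 bases with Irf9. It rose in the same experiments, by 0.63 in the AD model (adjusted p = 0.023) and by 0.79 with Aβ (adjusted p = 0.0044), and its part in the Irf9 values was not tested. The Rnf31 call in the AD model was lost without AD control replicate 1 (0.57, adjusted p = 0.079) or AD model replicate 2 (0.44, adjusted p = 0.091).

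Irf1, at chr11:53770014-53778374 on the plus strand, encodes the activator of MHC class I and guanylate-binding protein genes. It measured 11.7 and 10.4 FPKM in cKO controls and 12.9 and 13.8 in Ogt cKO. It measured 6.35 and 10.2 FPKM in AD controls and 13.0 and 19.7 in the AD model. It measured 5.24 and 4.31 FPKM in Aβ controls and 15.2 and 14.3 in Aβ-treated cultures. No group overlapped its own control, but the AD model replicates were far apart, and the cKO controls stood above the Aβ controls. Irf1 rose by 1.45 ± 0.23 with Aβ (adjusted p = 0.0017) and by 0.90 ± 0.23 in the AD model (adjusted p = 0.027). The call in the AD model was lost without AD control replicate 1 (0.60, adjusted p = 0.11), without AD model replicate 2 (0.62, adjusted p = 0.11), with no filter on low genes (adjusted p = 0.062) and with the 4 libraries of the experiment alone (adjusted p = 0.27). In Ogt cKO the change was 0.25 ± 0.23 (adjusted p = 0.39).

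Irf3 and Irf2 are counted here as the constitutive members. Irf3, at chr7:44997648-45002848 on the plus strand, encodes a factor that is made in advance and switched on by phosphorylation, so its transcript level does not report its activity. It measured 19.3 and 18.4 FPKM in cKO controls and 17.4 and 16.8 in Ogt cKO. It measured 13.4 and 15.2 FPKM in AD controls and 13.0 and 13.9 in the AD model. It measured 20.5 and 18.0 FPKM in Aβ controls and 14.7 and 16.3 in Aβ-treated cultures. The highest library was 1.58-fold above the lowest, the narrowest range among the members. Irf3 was not called in any experiment, although a crossed replicate block called it lower with Aβ (adjusted p = 0.034). Its change was -0.13 ± 0.12 in Ogt cKO (adjusted p = 0.39), -0.08 in the AD model (95% interval -0.35 to 0.19, adjusted p = 0.71) and -0.30 with Aβ (95% interval -0.56 to -0.03, adjusted p = 0.082). The Aβ-treated libraries lay below both of their controls, and the AD model libraries overlapped theirs. Bcl2l12, on the opposite strand, shares 1065 bases with Irf3; it measured 3.14 to 5.69 FPKM and was not called in any experiment.

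Irf2, which encodes the factor that competes with IRF1, was not steady. It lies at chr8:46739732-46847458 on the plus strand. It measured 4.12 and 4.44 FPKM in cKO controls and 2.59 and 2.49 in Ogt cKO. It measured 2.69 and 3.22 FPKM in AD controls and 4.05 and 4.29 in the AD model. It measured 1.82 and 2.20 FPKM in Aβ controls and 5.36 and 5.24 in Aβ-treated cultures. Ogt cKO lay below its controls, and the AD model and Aβ-treated libraries lay above theirs. Irf2 fell by 0.58 ± 0.12 in Ogt cKO (adjusted p = 0.0078) and rose by 1.07 ± 0.12 with Aβ (adjusted p = 3.6e-04). The AD model change of 0.39 ± 0.12 missed the threshold (adjusted p = 0.062); with voom on recovered reads it was 0.50 (adjusted p = 0.048). The fall in Ogt cKO was no longer called without cKO control replicate 2 (-0.53, adjusted p = 0.064) or without Ogt cKO replicate 2 (-0.56, adjusted p = 0.052).

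**Figure D2:**
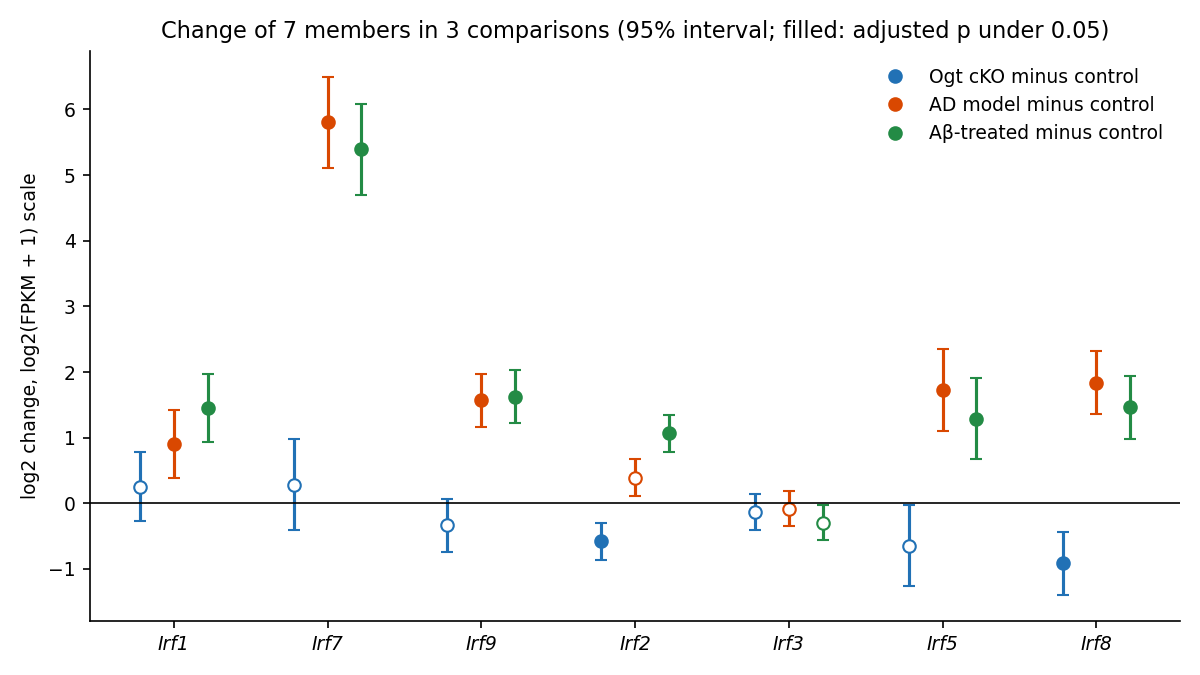
Log2 change of FPKM + 1 against each experiment's own control for the 7 tested members, with bars for the 95% confidence interval. Irf7 reaches 5.81 in the AD model and 5.40 with Aβ, Irf3 lies between -0.30 and -0.08, and in Ogt cKO Irf2 and Irf8 were called lower.

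The members linked to immune cells were Irf5, Irf8 and Irf4. Irf5, at chr6:29526625-29541871 on the plus strand, encodes a factor that drives inflammatory cytokine genes downstream of Toll-like receptors. It measured 13.8 and 12.9 FPKM in cKO controls and 9.37 and 7.12 in Ogt cKO. It measured 5.67 and 3.19 FPKM in AD controls and 13.4 and 20.2 in the AD model. It measured 6.47 and 8.72 FPKM in Aβ controls and 22.8 and 17.2 in Aβ-treated cultures. The cKO controls reached the level of the lower AD model library. Irf5 rose by 1.72 ± 0.27 in the AD model (adjusted p = 0.0033) and by 1.29 ± 0.27 with Aβ (adjusted p = 0.0069). In Ogt cKO the change of -0.64 ± 0.27 was not called (adjusted p = 0.085), but was with the 4 libraries of that experiment alone (adjusted p = 0.017) and after rescaling to total reads (-0.87, adjusted p = 0.025). The call with Aβ was lost without Aβ control replicate 1 (1.10, adjusted p = 0.060) or Aβ-treated replicate 1 (1.10, adjusted p = 0.057). Tnpo3 overlaps 1045 bases on the opposite strand; it measured 4.41 to 6.43 FPKM and was not called.

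Irf8, at chr8:120736358-120756694 on the plus strand, encodes the factor that works with PU.1 in microglia and macrophages. It measured 7.75 and 7.11 FPKM in cKO controls and 3.82 and 3.15 in Ogt cKO. It measured 2.76 and 1.88 FPKM in AD controls and 8.64 and 13.4 in the AD model. It measured 3.59 and 4.06 FPKM in Aβ controls and 13.6 and 11.1 in Aβ-treated cultures. Ogt cKO lay below its controls and the AD model and Aβ-treated libraries above theirs. Irf8 fell by 0.91 ± 0.21 in Ogt cKO (adjusted p = 0.011) and rose by 1.84 ± 0.21 in the AD model (adjusted p = 6.4e-04) and by 1.46 ± 0.21 with Aβ (adjusted p = 0.0011). The fall was not called without cKO control replicate 1 (-0.86, adjusted p = 0.058), cKO control replicate 2 (-0.97, adjusted p = 0.054) or Ogt cKO replicate 2 (-0.80, adjusted p = 0.068). With the 4 libraries of the AD experiment alone, neither Irf5 (adjusted p = 0.097) nor Irf8 (adjusted p = 0.069) passed there. Gm20388, on the same strand, shares 20337 bases with Irf8, all of the Irf8 span, and measured 0 FPKM in every library. How reads in that overlap were counted is not given in the sources used here.

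Microglia and macrophage markers were counted beside Irf5 and Irf8. Of the 12 markers, 0 rose and 5 fell in Ogt cKO (Csf1r, C1qa, Cd68, Fcgr3 and Tyrobp), 9 rose and 0 fell in the AD model, and 6 rose and 2 fell with Aβ. The share called in Ogt cKO was near the 42.3% of all genes called there. All 5 called markers fell, however, and 19.8% of all genes were called lower there. Over all genes 9.80% were called higher and 7.27% lower in the AD model, and 20.8% and 15.1% with Aβ. The 2 that fell with Aβ, Cx3cr1 and Tmem119, are markers of resting microglia. P2ry12, another such marker, went the other way, from 0.436 to 1.28 FPKM, and was not called (adjusted p = 0.15). Without Aβ control replicate 1 or Aβ-treated replicate 1, fewer markers were called higher with Aβ, and the falls were not called. In the AD model 3 rose without AD control replicate 1, 4 without AD model replicate 2 and 1 with the 4 libraries of the experiment alone. Their summed level was 7927 and 6064 FPKM in cKO controls and 3890 and 2878 in Ogt cKO. It was 894 and 1439 FPKM in AD controls and 3099 and 5466 in the AD model. It was 2062 and 3486 FPKM in Aβ controls and 5987 and 4509 in Aβ-treated cultures. The lysozyme gene Lyz2 alone made up 58.5 to 88.1% of these sums. Without Lyz2 the sums were 2165 and 1910 FPKM in cKO controls, 469 and 344 in Ogt cKO, 371 and 482 in AD controls, 909.8 and 1732 in the AD model, 469.7 and 666 in Aβ controls, and 1381 and 1122 in Aβ-treated cultures. None of the 12 was at 0 in any group. The oligodendrocyte markers, described above, also changed in each experiment where Irf8 did, and the part of either cell type in the Irf5 and Irf8 changes was not tested.

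**Figure D3:**
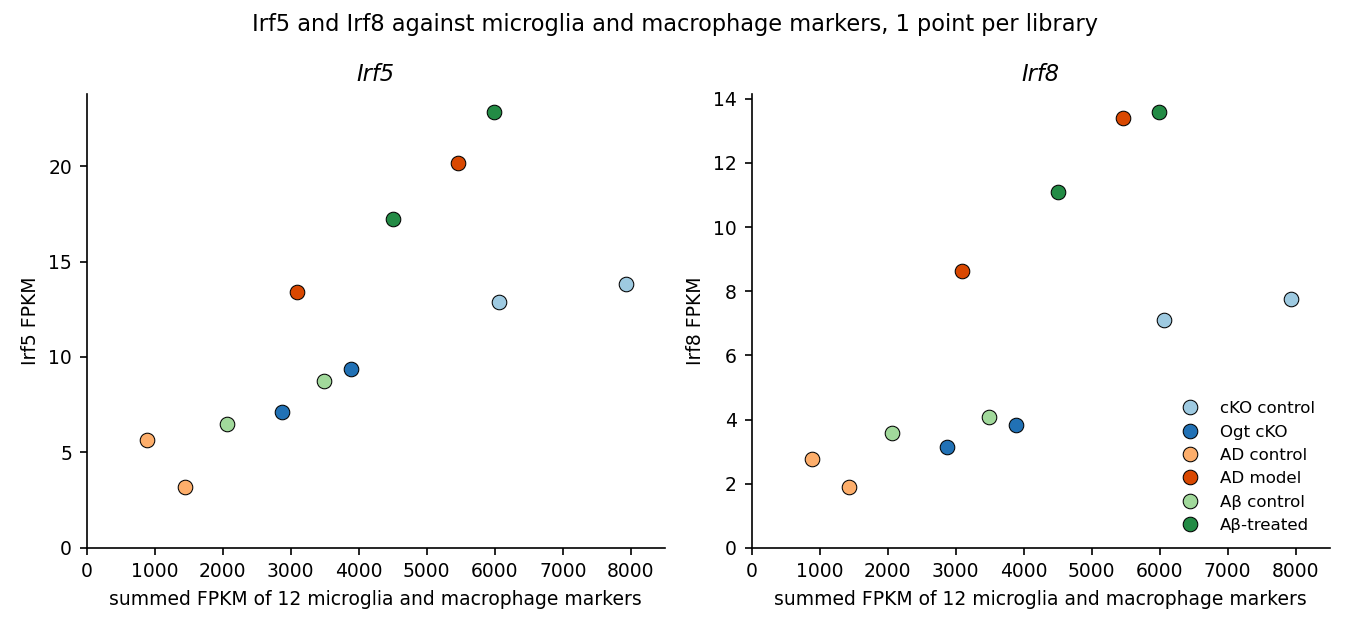
FPKM of Irf5 (left) and Irf8 (right) against the summed FPKM of 12 microglia and macrophage markers, mostly Lyz2, 1 point per library, coloured by group. The summed level runs from 894 in AD control replicate 1 to 7927 in cKO control replicate 1, and the highest Irf8 level, 13.6 FPKM, is at 5987.

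Irf4, at chr13:30749226-30766976 on the plus strand, encodes a factor of lymphocytes and of alternatively activated macrophages, and was close to absent. It held 13 and 8 reads in cKO controls and 1 and 2 in Ogt cKO. It held 1 and 0 reads in AD controls and 5 and 16 in the AD model. It held 0 and 1 reads in Aβ controls and 22 and 6 in Aβ-treated cultures. These 75 reads gave levels of 0 to 0.265 FPKM, with 3 reads worth 0.0297 to 0.0389 FPKM, and Irf4 did not pass the filter and was not tested. The ratio of summed reads, scaled to the library sizes, was 0.178 in Ogt cKO (exact 95% interval 0.0339 to 0.594), 21.2 in the AD model (3.40 to 875) and 27.6 with Aβ (4.56 to 1128). These intervals cover counting error only.

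The make-up of the family by summed FPKM is a description chosen after the values were seen. The 8 members summed to 39.4 to 69.4 FPKM in the controls and Ogt cKO, to 184 and 234 in the AD model and to 204 and 195 with Aβ. Irf7 made up 1.89 to 5.02% of that sum in the controls and Ogt cKO, 61.1 and 61.0% in the AD model, and 55.7 and 58.4% with Aβ. Irf3 made up 27.8 to 45.4% in the controls and Ogt cKO and 5.96 to 8.35% in the AD model and Aβ-treated libraries. Within a library the level of Irf7 was 0.0525 to 0.165 of that of Irf3 in the controls and Ogt cKO. It was 8.65 and 10.2 times that of Irf3 in the AD model and 7.75 and 6.99 times with Aβ. The ratio of Irf1 to Irf2 was 2.85 and 2.33 in cKO controls and 4.99 and 5.53 in Ogt cKO. It was 2.87 and 1.96 in Aβ controls and 2.85 and 2.73 in Aβ-treated cultures, so that it overlapped there and did not in the first experiment. In the AD experiment it was 2.36 and 3.17 in controls and 3.20 and 4.59 in the model.

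**Figure D4:**
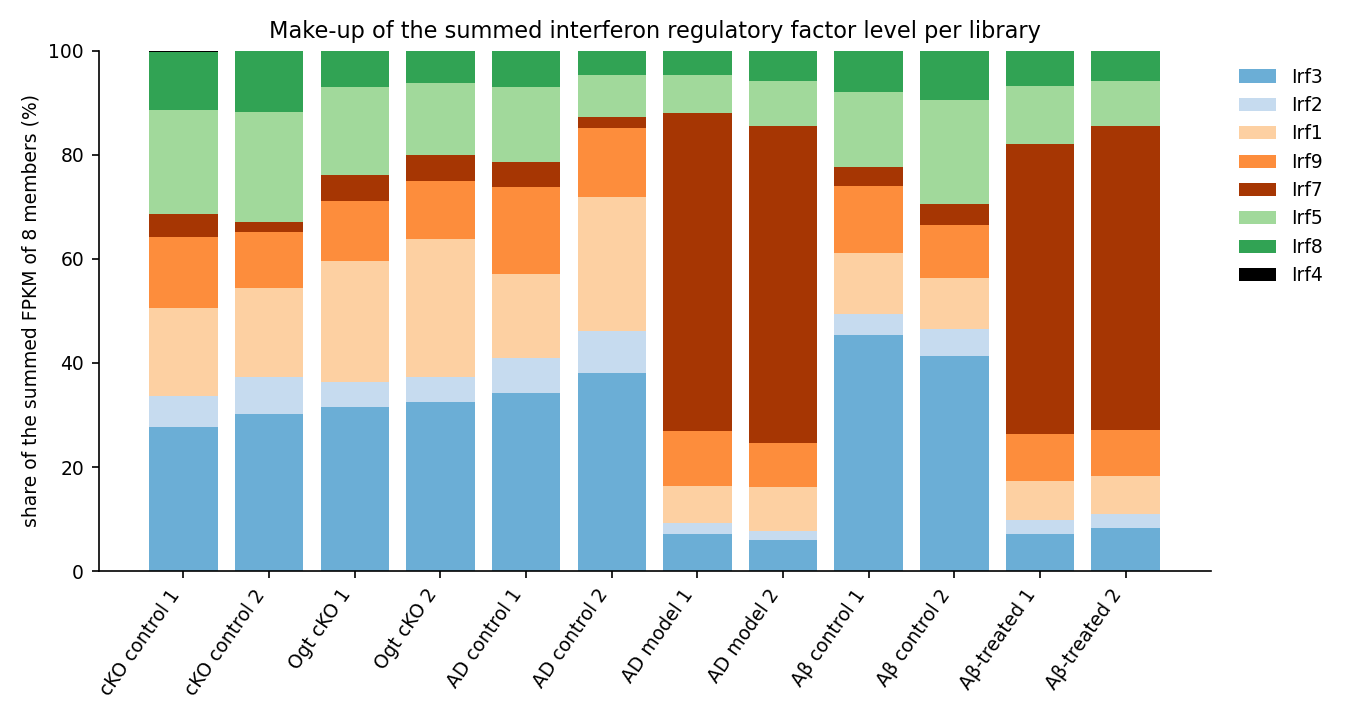
Share of the summed FPKM of the 8 members taken by each member, in percent, with 1 stacked bar per library starting at 0. Irf7 fills 55.7 to 61.1% in the AD model and Aβ-treated libraries and 1.89 to 5.02% elsewhere, and Irf4 is too low to be visible.

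The experiments were then compared with each other as differences between their changes, each change having its own control. The AD model change exceeded that of Ogt cKO for 5 of 7 tested members, where 25.6% of genes differed, 11.9% above 0 and 13.7% below. These were Irf7 (difference 5.52 ± 0.43, adjusted p = 1.5e-04), Irf8 (2.75 ± 0.30), Irf5 (2.37 ± 0.39), Irf9 (1.90 ± 0.25) and Irf2 (0.97 ± 0.17). The Aβ change exceeded that of Ogt cKO for 6 of 7, where 52.3% of genes differed, 26.6% above 0 and 25.7% below. These were the same 5, with differences from 1.64 (Irf2) to 5.11 (Irf7), and Irf1 (difference 1.20 ± 0.33, adjusted p = 0.014). For Irf1 the difference between the AD model and Ogt cKO, 0.65 (adjusted p = 0.16), was called without AD control replicate 2 (adjusted p = 0.036) or AD model replicate 1 (adjusted p = 0.046), and with a replicate block (adjusted p = 0.026). Between the AD model and Aβ, limma called 0 of 7 members, where 6.14% of genes differed, 1.52% above 0 and 4.62% below. At an unadjusted p under 0.05 there was 1, Irf2 (difference -0.68 ± 0.17, 95% interval -1.07 to -0.28, adjusted p = 0.056), and voom also called 1, Irf2, as did limma without AD control replicate 1 (-0.77, adjusted p = 0.034). The interval of that difference was -0.57 to 1.39 for Irf7, -0.63 to 0.52 for Irf9, -0.30 to 1.06 for Irf8, -0.45 to 1.31 for Irf5 and -1.29 to 0.19 for Irf1. These intervals are wide, so similar changes were not shown. For the count at an unadjusted p under 0.05, the share of all genes is not given.

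The order of the group means also separated the members. Irf7, Irf9, Irf5, Irf8 and Irf1 each had the AD model and Aβ-treated groups as their highest 2, and in Irf9 the ranges of those groups did not overlap. Irf2 was highest with Aβ, then in cKO controls, which overlapped the AD model. Irf3 was highest in Aβ controls and cKO controls, which overlapped, and lowest in the AD model, which overlapped its own control.

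Across the 12 libraries, Irf5 and Irf8 correlated at r = 0.975 and Irf7 and Irf9 at 0.966, on log2 values. These are descriptions, and the points share groups, controls and libraries. Among 8549 candidate genes, the 3 nearest to Irf7 were Usp18, which removes the ubiquitin-like ISG15, and the oligoadenylate synthetase genes Oas1a and Oas1g. Nearest to Irf9 were Oasl2, the immunity-related GTPase gene Igtp (r = 0.99 for both) and Pla2g7 (0.98). Near to Irf5 were Sh3bp2 (0.98) and Irf8 (0.98), and nearest to Irf8 were Sh3bp2, Anxa4 and Gltp (0.98 each). Irf1 was nearest to Rassf4 (0.92) and the chemokine genes Ccl3 (0.91) and Ccl4 (0.90). Irf2 was nearest to Ipmk (0.97), Usp6nl (0.96) and Safb2 (0.95), and Irf3 to Armh3 (0.96), Ddx28 (0.94) and Sf3b2 (0.93). The promoter letters around the ISRE match of a neighbour of Irf7 and a neighbour of Irf9 are shown as examples of what a match looks like, with matches in capitals (RefSeq, GRCm38.p6). In Oas1a 2 matches overlap. Oas1g held the same letters, and the windows of Oasl2 and Pla2g7, the other genes nearest to Irf9 by level, held no match.
Oas1a, chr5:120907526-120907555, minus strand: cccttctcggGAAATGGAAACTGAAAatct
Igtp, chr11:58199512-58199541, plus strand: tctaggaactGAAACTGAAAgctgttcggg
Of the 24 listed ISGF3 or IRF7 targets, 18 had a window and 8 of those held the ISRE letters, as did 4 of 10 IRF1 targets with a window. These counts are of genes, which can have several windows, whereas the 3.44% above is a share of windows. The measures are unlike, and no share of genes was computed.

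The wider pathway is described by lists of interferon pathway genes, chosen with earlier results of these data known. Their counts stand against 9.80% of all genes higher and 7.27% lower in the AD model, 20.8% and 15.1% with Aβ, and 22.6% and 19.8% in Ogt cKO. A listed gene below 1 FPKM in every control and Ogt cKO library passed the filter only through AD model or Aβ-treated libraries. Its rise there was not independent of the filter. Among the 24 ISGF3 or IRF7 targets, such genes were Mx1, Mx2, Oas2, Oas3, Herc6, and Ifi44 and Oasl1, whose levels are given below. The counts and medians of the 24 include them. Downstream of IRF7 and IRF9, all 24 of the ISGF3 or IRF7 targets rose in the AD model (median 3.63) and all 24 with Aβ (median 4.00), while in Ogt cKO 2 rose and 2 fell (median 0.19). The antiviral gene Ifi44 went from 0.387 to 27.3 FPKM in the AD model and from 0.105 to 22.1 with Aβ, and the oligoadenylate synthetase-like gene Oasl1 from 0.136 to 22.2 and from 0.303 to 24.7 (group means). In Ogt cKO, Xaf1 and Ifit3 rose, from 1.87 to 5.05 and from 10.1 to 20.4 FPKM, and Dhx58 and Eif2ak2 fell, from 2.95 to 1.21 and from 3.39 to 2.14. Over the alternatives, each leaving out a library or changing a setting, 23 to 24 of these targets rose in the AD model, 24 with Aβ and 0 to 3 in Ogt cKO. The calls in Ogt cKO were not kept in all fits that left out a library of that experiment. Such fits leave 1 library in a group and called fewer genes. A lost call there does not show dependence on the library left out. Xaf1 was not called without either cKO control or Ogt cKO replicate 1. Ifit3 was not called without cKO control replicate 2 or either Ogt cKO library. Dhx58 was not called without cKO control replicate 1 or Ogt cKO replicate 1 (adjusted p = 0.066 and 0.076), and Eif2ak2 not without any 1 of the 4 libraries (adjusted p = 0.054 to 0.12).

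Downstream of IRF1, all 15 tested targets rose in the AD model (median 3.06) and all 15 with Aβ (median 2.79), and in Ogt cKO 3 rose and 3 fell (median 0.02). A target among the 15 was below 1 FPKM in every control and Ogt cKO library, so it was tested only through the groups where it was high. The guanylate-binding protein gene Gbp3 went from 2.28 to 70.2 FPKM in the AD model and from 0.748 to 50.01 with Aβ. The 3 that rose in Ogt cKO were Cxcl10 (2.05 to 46.1 FPKM), Ccl5 (1.27 to 24.9) and Vcam1 (3.64 to 32.5), 2 chemokine genes and an adhesion molecule gene that NF-kB also drives. The cytokine gene Il15 fell there, from 2.06 to 0.446 FPKM. Irf1 itself was not called in Ogt cKO. With the 4 libraries of the AD experiment alone 8 of the 15 targets rose. In Ogt cKO the number that rose was 3 to 6 over the alternatives, and 1 in place of 3 fell without cKO control replicate 1, Ogt cKO replicate 1 or Ogt cKO replicate 2.

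Of the partners of IRF9, Stat2 went from 4.86 to 42.4 FPKM in the AD model, from 3.92 to 33.2 with Aβ and from 9.09 to 4.94 in Ogt cKO, and was called in all 3. The Stat2 call in Ogt cKO was lost without cKO control replicate 1 (-0.53, adjusted p = 0.15), Ogt cKO replicate 1 (-0.77, adjusted p = 0.092) or Ogt cKO replicate 2 (-0.73, adjusted p = 0.099). Over the 5 JAK-STAT genes 2 rose in the AD model and 3 with Aβ, and 1, Stat2, fell in Ogt cKO. Of the partners of IRF4 and IRF8, 6 were tested, and 3 rose in the AD model, 4 with Aβ (2 without Aβ control replicate 1) and 1 in Ogt cKO (0 without any 1 of its 4 libraries). Spi1, which encodes PU.1, rose from 8.38 to 49.96 FPKM in the AD model and from 13.5 to 55.6 with Aβ, with 32.0 and 22.9 in cKO control and Ogt cKO (adjusted p = 0.29). With the 4 libraries of the AD experiment alone Spi1 was not called there (adjusted p = 0.057).

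Upstream, 16 of 26 sensors, adaptors and kinases rose and 0 fell in the AD model, and 20 rose and 1 fell with Aβ. Tlr9 and Ticam2, counted as rising in the AD model and with Aβ, were below 1 FPKM in every control and Ogt cKO library. Their rises were not independent of the filter. In Ogt cKO 5 of the 26 rose and 6 fell, a share of calls equal to the 42.3% of all genes there. With the 4 libraries of the AD experiment alone 5 rose, without Aβ-treated replicate 1 13 rose with Aβ, and without any 1 of its 4 libraries 1 to 2 rose and 1 to 2 fell in Ogt cKO. The nucleic acid sensor gene Zbp1 went from 0.721 to 41.5 FPKM in the AD model and from 1.30 to 43.8 with Aβ. It also rose from 1.21 to 2.97 FPKM in Ogt cKO, a call lost without cKO control replicate 2 or either Ogt cKO library (adjusted p = 0.057 to 0.091). Ikbke, which encodes a kinase of IRF3 and IRF7, rose in all 3 experiments, from 2.32 to 5.67 FPKM in Ogt cKO, 1.34 to 9.97 in the AD model and 2.10 to 11.04 with Aβ. The endosomal RNA sensor genes Tlr7 and Tlr8 fell in Ogt cKO, from 7.37 to 1.47 FPKM and from 2.65 to 0.141, but Tlr7 was not called without any 1 of those 4 libraries (adjusted p = 0.054 to 0.064). Tlr7 rose from 1.99 to 14.9 FPKM in the AD model and from 1.88 to 10.3 with Aβ, the latter not called without Aβ-treated replicate 1 (adjusted p = 0.051). Of the interferon and receptor genes 6 of 17 were tested, and 3 rose in the AD model, 3 with Aβ and 1 in Ogt cKO, where 2 fell. Without 1 library 0 rose and 0 to 1 fell in Ogt cKO, and 1 rose in the AD model without either AD control or AD model replicate 2. Ifnb1, the interferon beta gene, was listed at 0 in all 6 control libraries. It measured 0.679 and 1.10 FPKM in the AD model (adjusted p = 0.039), 1.02 and 0.149 with Aβ (adjusted p = 0.091) and 0 and 0.249 in Ogt cKO (adjusted p = 0.63). Ifnb1 passed the filter only through AD model replicate 2 and Aβ-treated replicate 1. Its test, and its place among the 3 genes that rose in the AD model, were therefore not independent of the filter. The call in the AD model was lost without AD control replicate 1 (adjusted p = 0.097), AD control replicate 2 (0.099) or AD model replicate 2 (0.14), and Ifnb1 was called with Aβ without Aβ-treated replicate 2 (adjusted p = 0.013).

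Among 14 restraints of the pathway 4 rose and 1 fell in the AD model, 5 rose and 2 fell with Aβ, and 4 rose and 0 fell in Ogt cKO. Usp18 rose in all 3 experiments, from 1.53 to 83.2 FPKM in the AD model, 1.52 to 74.8 with Aβ and 1.72 to 3.66 in Ogt cKO. The last call was lost without cKO control replicate 2 (0.47, adjusted p = 0.18), Ogt cKO replicate 1 (0.88, adjusted p = 0.086) or Ogt cKO replicate 2 (0.76, adjusted p = 0.12), where 2 restraints rose in place of 4. Tnfaip3, which encodes the NF-kB inhibitor A20, rose from 0.834 to 27.8 FPKM in Ogt cKO and from 2.97 to 12.6 in the AD model, where it was not called with the 4 libraries of the experiment alone (adjusted p = 0.12). With Aβ it measured 10.1 and 16.9 FPKM in control and treated cultures (adjusted p = 0.11; 0.012 with those 4 libraries alone). Irf2bp1, whose product binds IRF2, was the gene that fell in the AD model, from 23.7 to 16.0 FPKM, and it fell with Aβ from 25.8 to 17.0. The first call was lost without AD control replicate 2 (adjusted p = 0.11) or either AD model library (0.087 and 0.055), and the next without Aβ control replicate 2 (0.052) or Aβ-treated replicate 1 (0.068). With Aβ, 2 to 3 restraints rose without Aβ control replicate 1 or either Aβ-treated library.

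**Figure D5:**
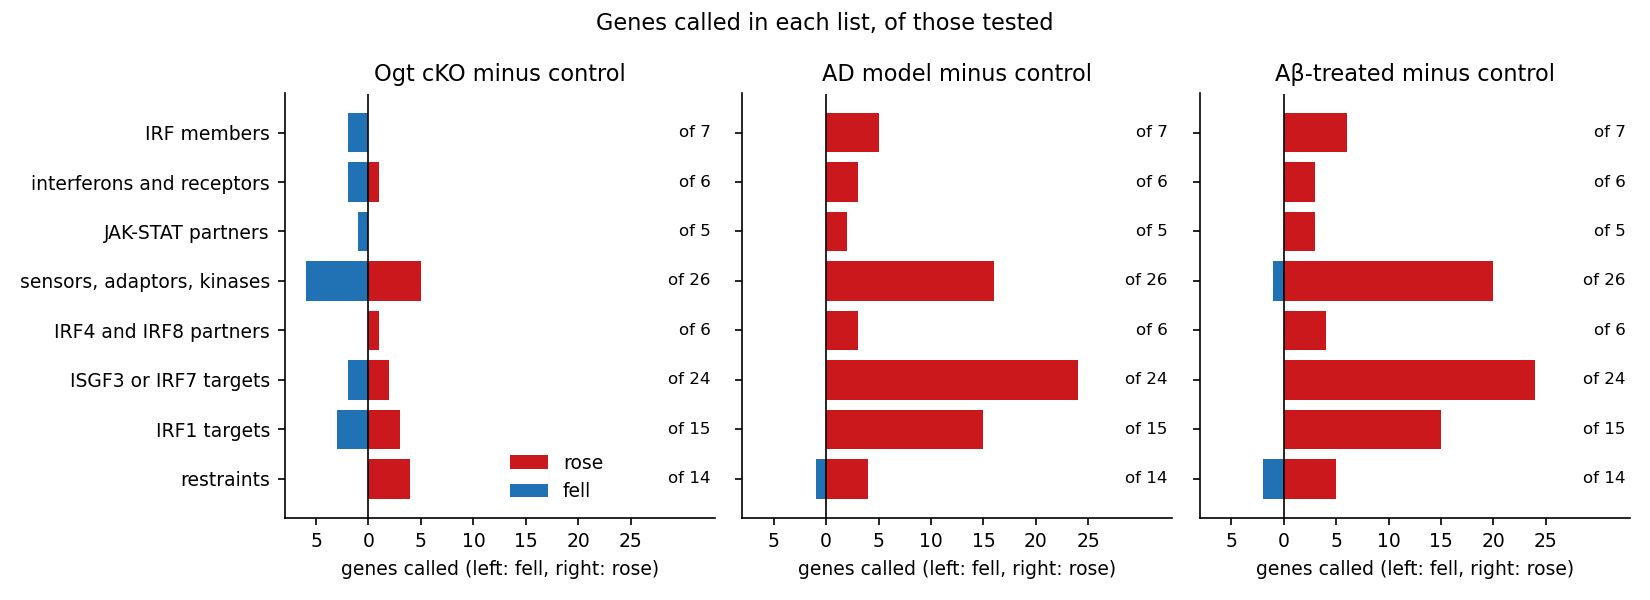
Number of genes called higher (right of 0) and lower (left of 0) in each list, with the number tested at the right, for the 3 experiments. All 24 ISGF3 or IRF7 targets and all 15 IRF1 targets rose in the AD model and with Aβ, some of them tested only through those groups. In Ogt cKO 2 and 3 of them rose and 2 and 3 fell, where 22.6% of all genes were called higher and 19.8% lower.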

How the data were processed

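RNA was measured by sequencing in 12 libraries. The deposited values are FPKM per gene, which the authors computed on the mouse build mm10, per the submitters' processing notes; the sources used here do not name the aligner, counter, annotation or strand setting. Each value times gene length gave whole reads within 0.1 read, which recovered 16418852 to 18705309 reads per library. Genes at 1 FPKM or more in at least 2 libraries were kept (14014 of 54532). log2(FPKM + 1) was fitted with limma 3.58.1 (trend on mean level, R 4.3.3) with 1 mean for each of 6 groups and 6 residual degrees of freedom, and p-values were adjusted by Benjamini-Hochberg over 14014 genes. Differences between experiments were contrasts of that fit. Other tables used Python 3.11.15 and matplotlib 3.10.9. The scripts were tested on simulated data.

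The members and gene lists were chosen with earlier results of these data known. All members are named. From each list, up to 4 genes per comparison with the smallest p among those called were eligible to be named, together with counts of 5 or fewer. Genes below 1 FPKM in every control and Ogt cKO library could also be named. Genes alike to a member were the 3 with the highest Pearson's r among genes with a mean of at least 5 FPKM. Some genes are not reported here. Motifs were searched on both strands of RefSeq promoter windows (GRCm38.p6). Alternatives were another pseudocount (0.1), no filter, rescaling to total reads, quantile normalization, voom on recovered reads, each experiment alone, a replicate block, a crossed block and leaving out each library.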

Additional observations from a re-analysis of the deposited data

Results flagged for a closer look

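The change of 5 members differed between the AD model and Ogt cKO by a test of the difference itself (limma, adjusted over all genes). The differences were 5.52 for Irf7 (adjusted p = 1.5e-04), 2.75 for Irf8 (adjusted p = 6.6e-04), 2.37 for Irf5 (adjusted p = 0.0043), 1.90 for Irf9 (adjusted p = 0.0017) and 0.97 for Irf2 (adjusted p = 0.0061).

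The change of 6 members differed in the same way between Aβ treatment and Ogt cKO. The differences were 5.11 for Irf7 (adjusted p = 1.1e-04), 2.37 for Irf8 (adjusted p = 5.1e-04), 1.96 for Irf9 (adjusted p = 5.5e-04), 1.93 for Irf5 (adjusted p = 0.0037), 1.64 for Irf2 (adjusted p = 2.5e-04) and 1.20 for Irf1 (adjusted p = 0.014). Age differed between these experiments as well, so treatment or genotype and age cannot be told apart in them.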

How the results depend on the processing

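Of 567 recomputed values of single members, 533 kept their direction and their side of the threshold, 13 lost the call, 13 gained it and 8 turned sign. Irf7 ranged from 5.46 to 6.72 in the AD model and from 5.17 to 6.09 with Aβ. The sign turned for Irf7 in Ogt cKO without cKO control replicate 2 (-0.19, up to 0.76 without other libraries) and for Irf3 in the AD model without AD control replicate 2 (0.00039, down to -0.16). It turned for the Irf3 difference of AD model and Ogt cKO without AD control replicate 1 (-0.030) and of Aβ and Ogt cKO after rescaling to total reads (0.13) or quantile normalization (0.0045). It turned for the Irf9 difference of AD model and Aβ with quantile normalization (0.16), without AD control replicate 1 (0.08) and without Aβ control replicate 2 (0.12, down to -0.23). None of these was called. Of the values of other named genes 464 were unchanged in direction and call, 61 lost the call, 3 gained it and 0 turned sign. Rescaling to total reads called 4 members in Ogt cKO instead of 2, moved the all-gene median there to -0.19 and the share of higher calls from 53.3% to 35.5%; quantile normalization moved that share with Aβ from 58.0% to 47.4%. With the 4 libraries of the AD experiment alone 278 genes and 2 members were called. Between the AD model and Aβ 1 member (Irf2) was called with voom and with the crossed block. Leaving out each library gave 1857 to 6801 genes in Ogt cKO, 1872 to 2421 in the AD model and 2674 to 5856 with Aβ, and 0 to 2, 4 to 5 and 5 to 6 members; for the differences it gave 5 to 6 members (AD model and Ogt cKO), 6 to 6 (Aβ and Ogt cKO) and 0 to 1 (AD model and Aβ). With a replicate block 6789, 3058 and 6098 genes were called, and 2, 5 and 6 members. In that fit 6 members (Irf1 added) differed between the AD model and Ogt cKO. The deviations of same-numbered libraries correlated at 0.03 in the cKO experiment, 0.55 in the AD experiment and -0.17 in the Aβ experiment. The main fit used no pairing, although same-numbered libraries of the AD experiment deviated alike. The crossed block, added after seeing the data, called 7358, 3549 and 6708 genes and 2, 6 and 7 members (Irf2 added in the AD model, Irf3 with Aβ), and 6 differed between the AD model and Ogt cKO. The causes were not tested.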
